A study of Mus musculus with 8 samples.

Results

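The immunity-related GTPases (IRG proteins) measured here were Irgm1, Irgm2, Igtp, Iigp1, Ifi47 and Tgtp1, 6 genes of 18194 with a probe set. They were chosen by name, as every probe set that the array annotation gives to these symbols alone or together with paralogs, which found 7 of 45037 tested probe sets. The choice of these genes was made with earlier results of these data known. Iigp1 had 2 probe sets, and the probe set of Tgtp1 is also assigned to its near-identical paralog Tgtp2, so these transcripts cannot be told apart. The other 4 genes had 1 probe set each.

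Messenger RNA was measured on 8 Affymetrix arrays, each holding haematopoietic stem cells of 1 C57/B6 mouse. The cells came from fetal liver and were sorted as negative for lineage markers and positive for Sca-1 and Kit. The groups were ADAR1 -/- (KO, 3 arrays), ADAR1 +/- (HT, 3 arrays) and wild-type control mice (WT, 2 arrays). ADAR1, the product of Adar, is an RNA-editing enzyme that changes adenosines of double-stranded RNA into inosines. The sources used here do not state the fetal stage, how the null allele was made, or which mice were littermates.

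IRG proteins are GTPases that mouse cells make in response to interferon and that act at membranes around intracellular bacteria and parasites. Irgm1, Irgm2 and Igtp (also called Irgm3) form the regulatory branch, which sits on the cell's own membranes and holds the other branch inactive there. Iigp1 (Irga6), Ifi47 (Irgd) and Tgtp1 (Irgb6) form the effector branch, which gathers on the membrane around a parasite and breaks it. In mice, loss of Irgm1 makes haematopoietic stem cells divide more and repopulate poorly, and removal of interferon signalling relieves this.

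The promoters of the 5 chromosome 11 members are shown first, because these genes are known targets of interferon-activated factors. Windows of 300 bases, from 250 bases before to 50 bases after the annotated gene start, were taken from RefSeq (GRCm38.p6). They were searched on both strands for an interferon-stimulated response element (ISRE; the letters GAAA, any 2 bases, and GAAA again), which binds interferon regulatory factors, and for a gamma-activated site (GAS; the letters TTC, any 3 bases, and GAA), which binds factors activated by interferon. Irgm1, Irgm2, Igtp, Tgtp1 and the paralog Tgtp2 held the ISRE letters, and Ifi47 did not. The ISRE letters stood in 3.44% of all 32851 windows, and in 5 of the 6 windows found for guanylate-binding proteins, another interferon-induced GTPase family, of which 2 held the GAS letters. The following 60-base stretches around the ISRE match nearest the gene start, read 5′ to 3′ on the strand of the gene, have the ISRE letters in capitals. They lie at chr11:48871420-48871479 (minus strand) for Irgm1, chr11:58214878-58214937 (plus) for Irgm2 and chr11:58199487-58199546 (plus) for Igtp. Those of Tgtp1 and Tgtp2 lie at chr11:48992299-48992358 and chr11:49064258-49064317 (both minus).
Irgm1: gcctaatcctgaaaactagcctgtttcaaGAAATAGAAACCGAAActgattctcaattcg
Irgm2: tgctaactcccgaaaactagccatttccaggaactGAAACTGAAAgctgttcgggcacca
Igtp: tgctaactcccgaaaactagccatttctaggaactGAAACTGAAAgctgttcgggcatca
Tgtp1: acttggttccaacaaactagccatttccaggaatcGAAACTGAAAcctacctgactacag
Tgtp2: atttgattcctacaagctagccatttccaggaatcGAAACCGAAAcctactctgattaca

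Irgm2 and Igtp shared 58 of the 60 bases and Tgtp1 and Tgtp2 shared 46, aligned without gaps. Irgm1 shared 29 to 35 bases with each of the other 4. Counted from the gene start at 0, the 2 overlapping ISRE matches of Irgm1 ran from base -30 to base -15. Irgm2, Igtp, Tgtp1 and Tgtp2 each held 1 ISRE match and, just ahead of it, 1 GAS match. The ISRE match began at base -64 in Irgm2, -34 in Igtp, -77 in Tgtp1 and -70 in Tgtp2. Both sets of letters occurred together in 0.454% of all windows, and the GAS letters alone or with ISRE in 8.3%. The run CTAGCC was the longest shared by all 5 stretches and stood in 4002 of the 32851 windows. The window of Ifi47 is printed for contrast, since it held neither set of letters (chr11:49076337-49076636, plus strand, no capitals). RefSeq lists several Ifi47 transcripts, and this window belongs to the start that the sequence table gives. A match is a run of letters and not a shown binding site, and a missing match says nothing about the factor.
Ifi47: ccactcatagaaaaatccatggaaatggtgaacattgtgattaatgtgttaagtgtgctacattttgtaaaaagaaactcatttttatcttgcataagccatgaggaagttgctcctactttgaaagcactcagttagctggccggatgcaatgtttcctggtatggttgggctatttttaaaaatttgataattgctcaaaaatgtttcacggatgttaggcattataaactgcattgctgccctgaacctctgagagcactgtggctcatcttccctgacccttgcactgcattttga

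**Figure D1:**
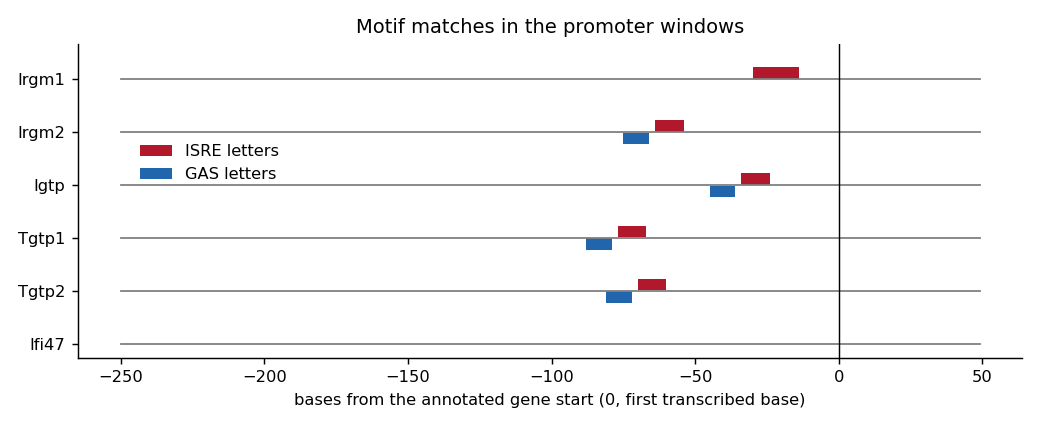
Matches to the ISRE letters (red, above the line) and the GAS letters (blue, below the line) in the promoter windows of 5 members and Tgtp2, by distance in bases from the annotated gene start. Irgm1 holds 2 overlapping ISRE matches and no GAS match, Irgm2, Igtp, Tgtp1 and Tgtp2 hold 1 of each, and Ifi47 holds neither.

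Values are linear intensities per probe set as deposited, and differences are on the log2 scale. Background on an array is the highest of its 27 Bacillus control probe sets, 7.40 to 9.29 linear units on KO arrays, 6.20 to 6.98 on HT arrays and 7.09 to 8.15 on WT arrays. Between 39.98% and 46.4% of tested probe sets were above background on KO arrays, 51.2% to 61.2% on HT arrays, and 45.6% and 51.5% on WT arrays. The brightest Adar probe set read 59.8, 144 and 176.5 on KO arrays, 9.89 to 16.1 on HT arrays and 7.66 and 17.6 on WT arrays. Which part of Adar the null allele lacks is not stated there, and neither are the probe positions, so these readings do not check the labels. Of 8 measured stem and progenitor markers, 0 passed the test in either direction between KO and WT or HT. Their summed intensity was 344 to 558 on KO arrays, 317 to 341.5 on HT arrays, and 308 and 616 on WT arrays. Kit, a receptor used for the sort, read 9.33 to 13.3 on KO arrays, 13.2 to 23.5 on HT arrays, and 20.2 and 11.7 on WT arrays. Xist and Eif2s3y gave a male pattern on KO array 1 and HT arrays 1 and 3, and a female pattern on the other arrays.

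All 7 IRG probe sets read higher on every KO array than on any HT or WT array, as did 3.89% of all probe sets. Against WT, 5 of the 7 passed the test, all higher, where 0.22% of all probe sets were called higher and 0.107% lower. They were those of Irgm2, Igtp, Iigp1 (both) and Tgtp1 with Tgtp2. When only the 5 KO and WT arrays were fitted, 4 of all 45037 probe sets passed (0.00888%) and 0 of the 7, those 5 having adjusted p from 0.0606 to 0.103 by limma. With a pseudocount of 32 added to the intensities 62 of all probe sets passed, 3 of them IRG. Against HT the same count of 5 passed, all higher, where 0.262% of all probe sets were called higher and 0.24% lower. Against HT and WT joined, 5 passed as well, with 0.329% called higher. The IRG genes were chosen with earlier results of these data known, so their contrast with all probe sets is not independent of that choice. Irgm1 and Ifi47 did not pass in any of these 3 comparisons. In sorted cells measured in bulk, more cells that make a transcript and more transcript per cell cannot be told apart. The KO comparisons share their KO arrays, and those with HT and WT apart and joined share control arrays, so they are not independent of each other.

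**Figure D2:**
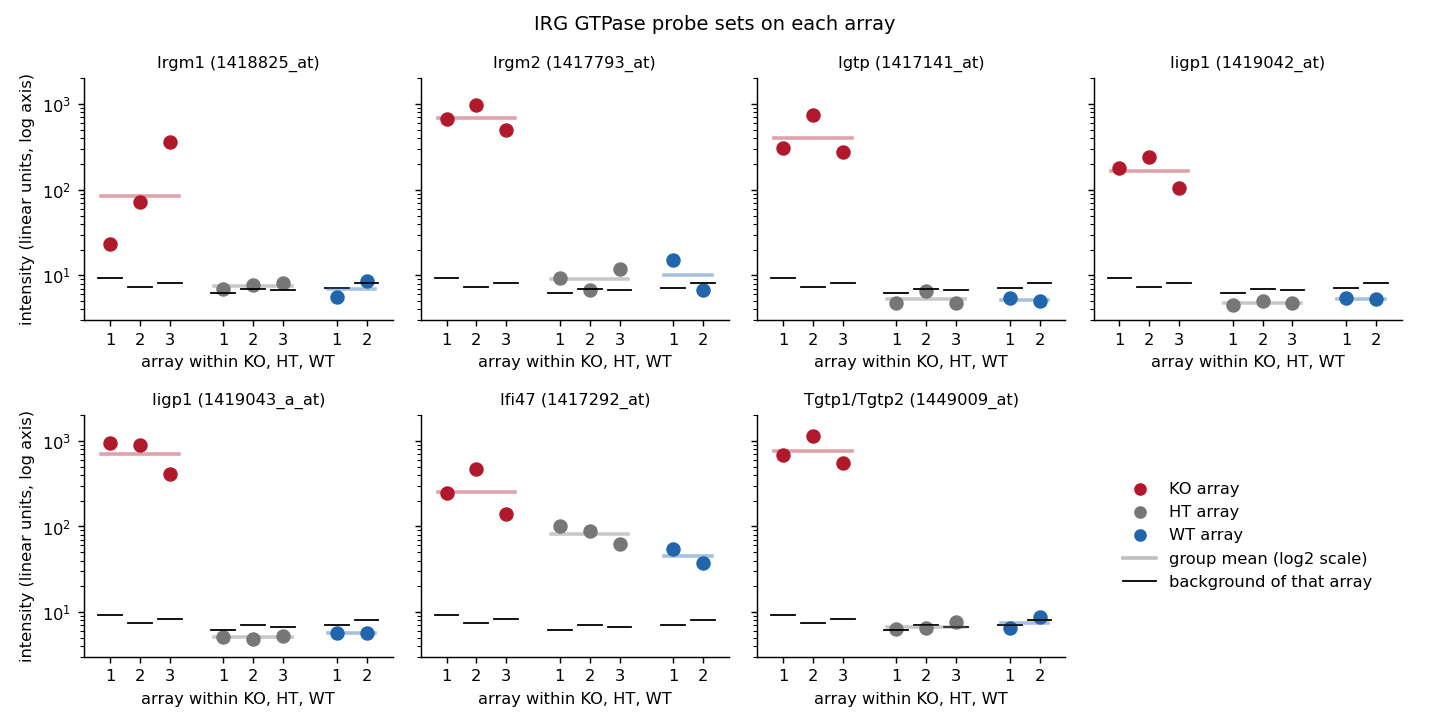
Linear intensity (log axis) of each IRG probe set on the KO, HT and WT arrays, with the group mean of log2 values as a pale bar and the background of each array as a black tick. Iigp1 and Igtp lie at or below background on every HT and WT array, Ifi47 lies above it on all 8 arrays, and Irgm1 spreads from 23.1 to 361 within KO.

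In the regulatory branch, Irgm2 read 678, 983 and 494 on KO arrays, 9.25, 6.76 and 11.8 on HT arrays, and 15.2 and 6.66 on WT arrays. The KO arrays stood far above the others without overlap, the lowest of them 32.4-fold above the highest control array. Irgm2 rose by 6.10 ± 0.45 log2 units against WT (standard error; 3 and 2 arrays), which is 68.5-fold (limma, adjusted p = 0.00557). The difference was 6.70 without WT array 1, 5.50 without WT array 2 and 4.08 with the pseudocount, and it passed in each. Against HT it rose by 6.25 ± 0.40 log2 units (3 and 3 arrays), 76.3-fold (adjusted p = 0.00268). It was above background on 2 of 3 HT arrays and 1 of 2 WT arrays, so the lower level was only partly measured.

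Igtp, the regulatory member also needed for resistance to Toxoplasma in mice, read 305, 744 and 280 on KO arrays. It read 4.75, 6.65 and 4.73 on HT arrays, and 5.48 and 4.95 on WT arrays. Every HT and WT array was at or below its background, so the fold is a lower bound against that background. Igtp rose at least 52.5-fold against WT (limma, adjusted p = 0.00442), at least 60.4-fold against HT (0.00230) and at least 57.1-fold against both joined (0.000166).

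Irgm1, the member tied to stem cell quiescence in mice, read 23.1, 72.0 and 361 on KO arrays. It read 6.87, 7.79 and 8.11 on HT arrays, and 5.52 and 8.64 on WT arrays. The KO arrays did not overlap the others, but they differed among themselves by 15.7-fold, against a spread of 1.99- to 3.41-fold among KO arrays for the other 6 probe sets. The difference was 3.61 ± 1.01 log2 units against WT (limma, adjusted p = 0.389, unadjusted p = 0.00968) and 3.48 ± 0.91 against HT (adjusted p = 0.246). Against HT and WT joined it was 3.53 ± 0.75 (adjusted p = 0.121). Without KO array 1 this last difference was 4.47 and passed (adjusted p = 0.0270), and without KO array 3 it was 2.48 (0.0616). With array weights and with the other settings in the closing section the differences against WT and HT did not pass.

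The KO mouse with the highest Irgm1 was the lowest for the rest of the family. KO array 3 had the highest KO value of Irgm1 and the lowest KO value of the other 5 genes, taken by brightest probe set. The margin was small for Igtp, which read 305 on KO array 1 and 280 on KO array 3. For Tgtp1 these readings were 687 and 555. KO array 2 had the highest KO value of 4 of the 6 genes, Irgm2, Igtp, Ifi47 and Tgtp1. On KO array 1 Irgm1 exceeded the control mean by 1.66 log2 units and Irgm2 by 6.17, and on KO array 3 the same excesses were 5.63 and 5.71. Whether Irgm1 and the other members differ in their response was not tested.

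In the effector branch, the brighter Iigp1 probe set read 948, 893 and 405 on KO arrays. It read 5.08, 4.89 and 5.28 on HT arrays, and 5.65 and 5.73 on WT arrays, all at or below background. It rose at least 92.1-fold against WT (limma, adjusted p = 0.00138) and at least 106-fold against HT (0.000671). The dimmer Iigp1 probe set read 182, 239 and 104 on KO arrays, 4.50, 4.99 and 4.81 on HT arrays, and 5.40 and 5.24 on WT arrays. It too was at background on every HT and WT array, and it rose at least 21.75-fold against WT (0.00377) and at least 25.02-fold against HT (0.00187). Both Iigp1 probe sets therefore passed in the same direction, and both were lowest among KO arrays on array 3.

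The probe set of Tgtp1 and Tgtp2 read 687, 1139 and 555 on KO arrays. It read 6.26, 6.545 and 7.55 on HT arrays, and 6.50 and 8.73 on WT arrays. It rose by 6.65 ± 0.32 log2 units against WT, 100.5-fold (limma, adjusted p = 0.000910), and by 6.81 ± 0.28 against HT, 112-fold (0.000617). Among all 45037 probe sets it ranked 10th by p against WT and 6th against HT. It was above background on 2 of 3 HT and 1 of 2 WT arrays.

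Ifi47 differed from the rest of the family in being above background on all 8 arrays. It read 243, 474 and 139 on KO arrays, 102, 89.7 and 61.6 on HT arrays, and 54.8 and 37.8 on WT arrays. The 3 groups did not overlap, but the lowest KO array was only 1.37-fold above the highest HT array. The difference was 2.47 ± 0.51 log2 units against WT (5.53-fold; limma, adjusted p = 0.203) and 1.61 ± 0.46 against HT (3.05-fold; 0.286). Against both joined it was 1.95 ± 0.45 (0.153). None of these passed, and the unadjusted p values were 0.00206, 0.0101 and 0.00271.

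The group means of log2 intensity over KO, HT and WT arrays show which members were measured at all outside KO cells. Iigp1 (brighter probe set) averaged 9.45 ± 0.68 in KO (SD, n = 3), 2.35 ± 0.05 in HT (n = 3) and 2.51 ± 0.01 in WT (n = 2). Igtp averaged 8.64 ± 0.78 in KO, 2.41 ± 0.28 in HT and 2.38 ± 0.10 in WT. Irgm1 averaged 6.40 ± 1.99 in KO, 2.92 ± 0.12 in HT and 2.79 ± 0.46 in WT. Ifi47 averaged 7.98 ± 0.89 in KO, 6.37 ± 0.38 in HT and 5.51 ± 0.38 in WT. The small spreads of Iigp1 and Igtp outside KO are those of readings at background.

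Loss of a single Adar copy was examined in HT against WT. By limma 0 of the 7 IRG probe sets passed, 0 had an unadjusted p below 0.05, and 1 of all 45037 probe sets passed, a lower one (0.00222%; 5.37% had an unadjusted p below 0.05). Iigp1 and Igtp were at background in both groups, so no difference is given for them. Those of the other 4 genes ran from -0.16 ± 0.32 (Tgtp1) to 0.86 ± 0.51 log2 units (Ifi47; adjusted p = 0.895). Over all probe sets 164 passed without WT array 1 and 38 without WT array 2, fits in which the lone WT array is assumed to vary like the other groups, and 0 of the IRG probe sets passed in either. Ifi47, read above background throughout, was higher on each HT array than on either WT array, and this difference did not pass.

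**Figure D3:**
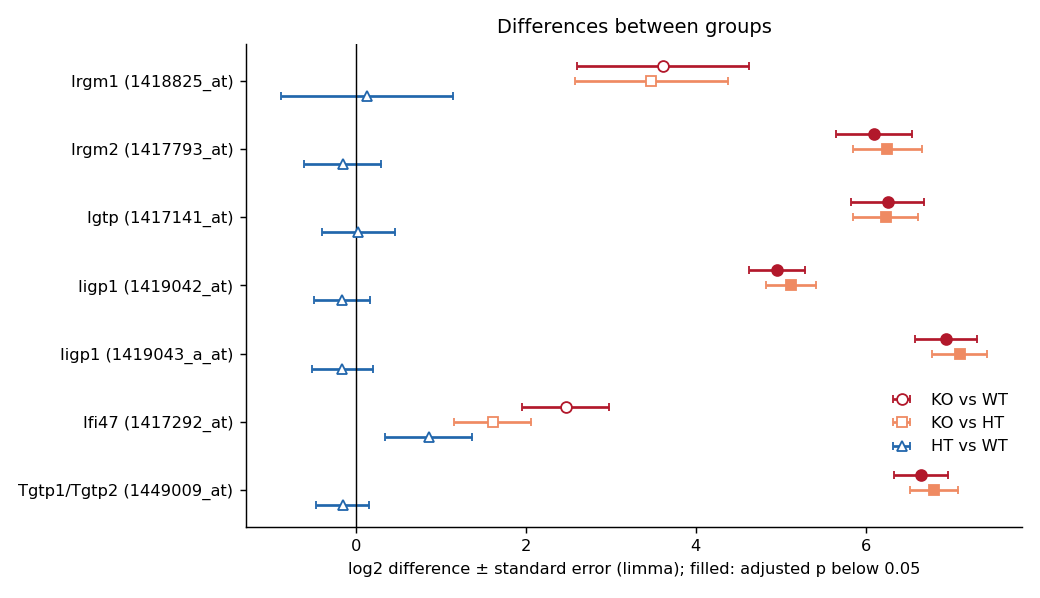
Log2 difference with its limma standard error for each IRG probe set in KO against WT, KO against HT and HT against WT, with filled symbols where the adjusted p was below 0.05. The same 5 probe sets are filled in both KO comparisons, and Irgm1 and Ifi47 are open throughout. Igtp and Iigp1 are plotted as fitted, although their HT and WT readings are at background and only lower bounds hold, of 4.44 to 6.52 against WT and 4.64 to 6.73 against HT.

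Other GTPases of the interferon response were set beside the IRG genes. The IRG median difference was 6.18 log2 units against WT, or 5.91 with genes at background set to their bound, and 6.24 or 6.085 against HT. The median over all 18194 genes was -0.0001 against WT and 0.06 against HT. Of all genes, 0.396% were called higher against WT, 0.462% against HT and 0.561% against both joined, and 0.313% were called lower against HT. Of 6 measured guanylate-binding proteins (GBP), large GTPases that act with IRG proteins on pathogen membranes, 1 rose against WT and 1 against HT, and 2 rose against both joined. Their median was 2.62 log2 units against WT (2.08 with bounds) and 2.76 against HT (2.28 with bounds).

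Gbp7 was the GBP that rose against WT and against HT. It read 350, 907 and 348 on KO arrays, 32.6, 41.5 and 22.1 on HT arrays, and 27.4 and 38.5 on WT arrays. Its difference was 3.89 ± 0.49 log2 units against WT (limma, adjusted p = 0.0395), a call lost without any 1 of the 5 HT and WT arrays or without KO array 1. Its call against HT (3.95 ± 0.43, adjusted p = 0.0209) was lost without any 1 of the 3 HT arrays. Gbp3 read 214, 188 and 36.15 on KO arrays, 4.63, 7.22 and 3.69 on HT arrays, and 5.40 and 5.58 on WT arrays. It passed only against both joined (4.45 ± 0.57, adjusted p = 0.01705). Gbp2 read 56.7, 273 and 15.7 on KO arrays, 4.81, 4.38 and 4.65 on HT arrays, and 5.70 and 5.21 on WT arrays. Gbp2 and Gbp6 were at background on every HT and WT array. Gbp2 was at least 8.21-fold and Gbp6 at least 2.19-fold higher against WT, and neither passed (adjusted p = 0.416 and 0.615). Like most IRG genes, Gbp2 and Gbp3 were lowest among KO arrays on array 3. Gbp7 read nearly the same on KO arrays 1 and 3, and Gbp6 was below background on KO array 3, at 5.79. Of the Mx GTPases, which block viruses, Mx1 rose by 4.89 log2 units against WT (0.0121) and Mx2 at least 43.3-fold (0.00144). Both also rose against HT.

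Of 9 other IRG genes listed, 3 had a probe set of their own. The list did not hold Gm12185, which is described with the neighbours, where it passed. By limma 0 of the 3 passed in any comparison, with 0 below an unadjusted p of 0.05 against WT and 1, a higher one, against HT. Of all 18194 genes, 615 higher and 1076 lower ones were below it against WT. Against HT these were 933 and 1433. Irgc1, whose product is found in the testis of mice, differed by -0.42 log2 units against WT, and Irgq by 0.27. Gm4951 read 16.4, 150 and 7.83 on KO arrays, 7.18, 6.41 and 6.05 on HT arrays, and 5.93 and 6.46 on WT arrays. Only KO array 2 was well apart in that gene (2.11 ± 1.11 log2 units against WT, adjusted p = 0.737).

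Upstream of the IRG genes, 2 of 18 measured interferon signalling genes rose against WT, 4 rose against HT and 4 against both joined, and 0 fell in any of these. Stat2, a transcription factor of the type I interferon response, read 127, 134.5 and 99.8 on KO arrays, 8.03, 8.95 and 9.85 on HT arrays, and 7.05 and 5.79 on WT arrays. It rose at least 15.7-fold against WT (limma, adjusted p = 0.000828) and 13.4-fold against HT (0.000671). Irf7, a factor that amplifies type I interferon, rose 44.4-fold against WT (0.0109). It read 249, 175 and 632 on KO arrays, 6.39, 6.04 and 7.18 on HT arrays, and 7.11 and 6.51 on WT arrays. Irf1, a factor activated by interferon gamma and alpha alike, differed by 3.22 ± 0.46 log2 units against WT (0.0652) and rose by 3.81 ± 0.41 against HT (0.0204). Irf9, the DNA-binding part of the type I complex, rose by 2.93 ± 0.39 against HT (0.03745) and differed by 2.89 ± 0.43 against WT (0.0748).

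Ifng, the gene of interferon gamma, was at background on every array, at 4.77 to 4.999 on KO arrays, 4.39 to 5.68 on HT arrays, and 5.16 and 4.47 on WT arrays. Ifnb1, the gene of interferon beta, read 43.2, 11.8 and 9.51 on KO arrays, 6.11, 4.97 and 4.915 on HT arrays, and 6.17 and 5.08 on WT arrays. Its KO arrays were above background and the others were not, and the difference did not pass against WT (adjusted p = 0.595) or HT (0.348). Of 8 interferon gamma targets of antigen presentation and macrophages, 0 passed by limma in any comparison and 0 had an unadjusted p below 0.05. Against WT, 615 higher and 1076 lower ones of all 18194 genes were below it. A count of 0 among 8 genes is thus little different from the share of all genes. Among the 8 targets, the largest difference against WT was -0.41 log2 units, for the class II gene H2-Eb1. Their median was -0.03 log2 units against WT and 0.05 against HT. H2-Eb1 was above background on all 8 arrays, and the other 7 were at background on most arrays, so the median is largely one of background readings.

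The ubiquitin-like conjugation system of autophagy, which in mice is needed for IRG proteins to load onto the membrane around a parasite, was listed with Rab1a and Gdi2, 16 genes in all. By limma 0 of the 16 passed in any comparison, and against WT an unadjusted p below 0.05 was reached by 1 gene, a lower one. Of all 18194 genes, 615 higher and 1076 lower ones reached it against WT. The median was -0.21 log2 units against WT and -0.11 against HT. The 4 largest differences against WT were those of Map1lc3a (1.82), Gabarapl1 (-1.41), Sqstm1 (1.15) and Atg5 (1.09 log2 units), with adjusted p from 0.768 to 0.808. Gabarapl1, a ubiquitin-like protein of the autophagosome, read 18.9, 286 and 91.7 on KO arrays, 262, 214 and 225 on HT arrays, and 238 and 186 on WT arrays, so its KO arrays spread across the others. Atg5 read 15.6, 16.0 and 100.2 on KO arrays, 17.05, 12.2 and 16.9 on HT arrays, and 14.9 and 12.6 on WT arrays, with KO array 3 alone standing apart.

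Quiescence and cycling genes were listed because Irgm1 is tied to stem cell quiescence. Of 20 measured, 0 passed by limma against WT or HT, and against WT an unadjusted p below 0.05 was reached by 3 higher genes and 1 lower gene. Of all 18194 genes, 615 higher and 1076 lower ones reached it against WT. Against both joined 1 rose, the immediate early factor Egr1 (3.38 ± 0.47 log2 units, adjusted p = 0.0265), which keeps stem cells quiescent in mice. It read 178, 198 and 69.2 on KO arrays, 10.7, 27.3 and 7.83 on HT arrays, and 11.7 and 13.4 on WT arrays. Mki67, a marker of dividing cells, read 1702, 3262 and 2708 on KO arrays, 4157, 3879 and 3512 on HT arrays, and 4497 and 3480 on WT arrays. Every KO array read below every HT and WT array, and the mean difference of -0.68 ± 0.29 log2 units against WT did not pass (limma, adjusted p = 0.658). How many of all probe sets were placed so was not counted, and Mki67 was named after its values were seen. Top2a, from the same list, read 442, 353.5 and 391 on KO arrays. It read 505, 438 and 529 on HT arrays, and 481 and 603 on WT arrays, so the groups overlapped. After Egr1, the largest differences against WT were those of Txnip (3.42, adjusted p = 0.402), Ndn (-1.85, 0.730) and the cell cycle inhibitor Cdkn1a (1.28, 0.773), and none of these passed. The list median was -0.16 against WT and 0.13 against HT.

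**Figure D4:**
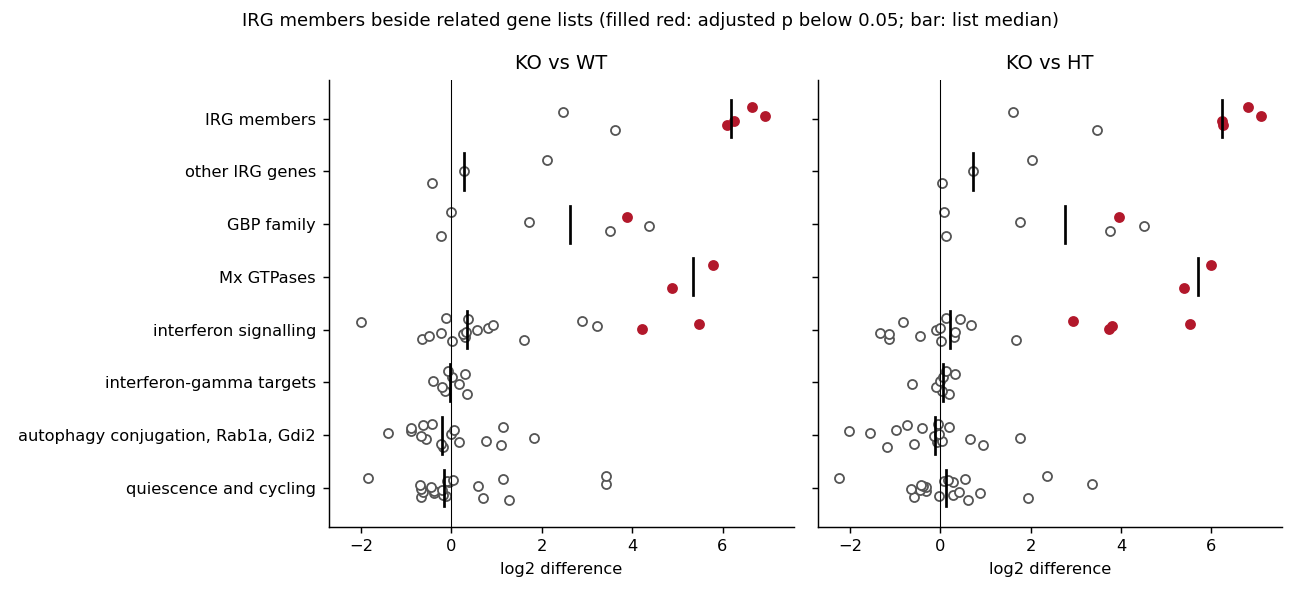
Log2 differences of single genes, by brightest probe set, in KO against WT (left) and KO against HT (right) for the 6 IRG members and 7 related lists, with the list median as a bar and genes of adjusted p below 0.05 in red. IRG members have 4 called genes in each panel, GBP genes 1, Mx genes 2, and interferon signalling genes 2 and 4.

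The genes next to the IRG genes were examined because 5 members lie on chromosome 11, in a cluster with Irgm1, Tgtp1 and Ifi47 and a second with Igtp beside Irgm2, while Iigp1 lies on chromosome 18. Protein-coding genes up to 5 places to either side numbered 29, of which 21 had a probe set. Their median difference was 0.08 log2 units against WT and 0.04 against HT. Called higher by limma were 0.396% of all genes against WT, 0.462% against HT and 0.561% against both joined. Gm12185, between Irgm1 and Tgtp1, was the 1 neighbour that passed in KO against WT, HT or both. RefSeq lists the synonym Irgb2b1 for it, which places it in the IRG family rather than among unrelated neighbours. Gm12185 read 36.7, 62.85 and 35.6 on KO arrays, 7.36, 6.25 and 7.80 on HT arrays, and 9.085 and 7.49 on WT arrays. It rose by 2.40 ± 0.28 log2 units against WT (limma, adjusted p = 0.0295) and by 2.61 ± 0.25 against HT (0.0119). The differences of all 21 against WT ran from -1.63 to 2.66 log2 units, and the genes at both ends did not pass. An unadjusted p below 0.05 by limma was reached against WT by 4 of the 21, 3 of them higher. Among all 18194 genes, 615 higher and 1076 lower ones reached it.

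The genes with the most similar pattern were sought among 7478 genes above background on all KO arrays. Most of the nearest genes, like Igtp and Iigp1, read at or near background on HT and WT arrays, so the measure mainly ranks the size of the KO excess over that floor. Likeness was the root mean square difference, over the 8 arrays, between a gene's log2 values and the mean of the 6 members, each taken relative to its control mean. The closest were Mx1 (0.34 log2 units), the oligoadenylate synthetase-like Oasl2 (0.37), Slfn5 (0.39), the nuclear body protein Sp100 (0.46), the stress pseudokinase Trib3 (0.48) and Trim30a (0.51). The next gene stood at 0.52 and the median gene at 3.40. Among the members themselves Igtp (0.63) and Irgm2 (0.67) were nearest to their mean, and Irgm1 (1.48) and Ifi47 (2.09) were farthest from it. Each member was thus farther from the mean than any of the 6 nearest genes, so likeness to it is not likeness to a single member. The mean was 4.94, 5.79 and 5.12 on KO arrays 1 to 3, although array 3 was the lowest KO array for 5 of the 6 members. Oasl2, for example, read 236, 755 and 220 on KO arrays, 7.36, 6.29 and 8.01 on HT arrays, and 6.14 and 7.63 on WT arrays.

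**Figure D5:**
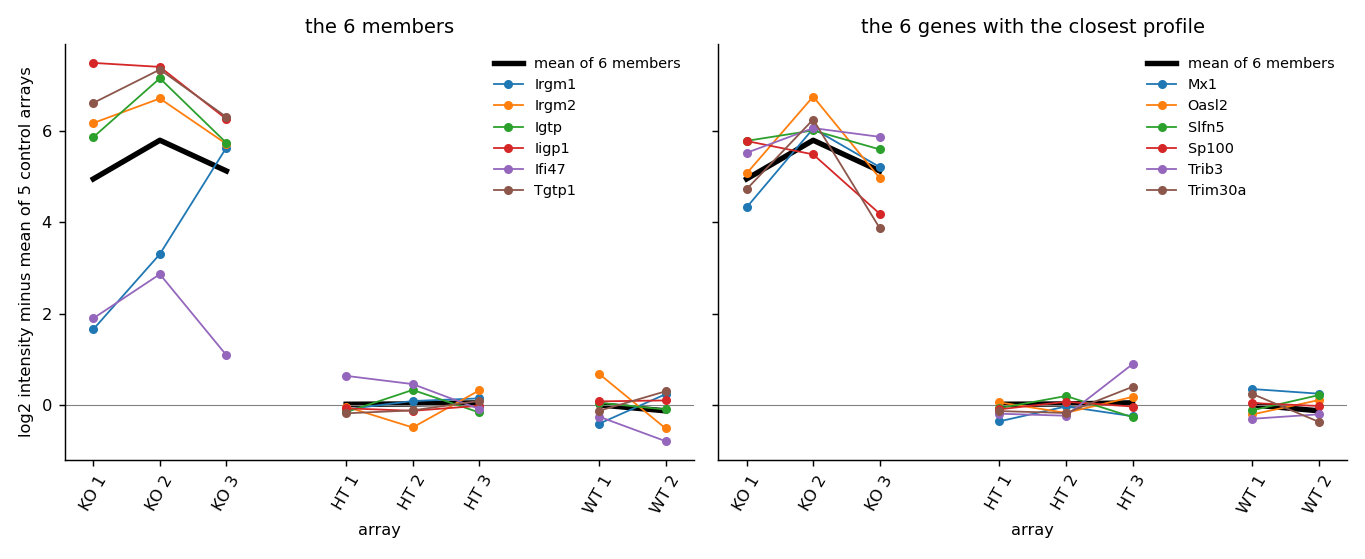
Log2 intensity relative to the mean of the 5 HT and WT arrays, for each array, of the 6 members (left) and of the 6 genes nearest to their mean (right), with that mean as a thick line. On KO array 3 Irgm1 reaches 5.63, its highest, while Ifi47 is at its lowest KO value of 1.10.

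Markers of other cell types were examined, although the sort for cells without lineage markers should remove most mature blood cells. The 8 macrophage markers summed to 51.05 to 59.9 linear units on KO arrays, 198.5 to 337 on HT arrays, and 133 and 663 on WT arrays. Of them 6 were at background on every KO array, and Adgre1, the F4/80 antigen, was at background on all 8 arrays. By limma 0 of the 8 macrophage markers passed against WT or HT in either direction. The 5 measured T and NK cell markers summed to 30.45 to 35.5 on KO arrays, 30.7 to 36.6 on HT arrays, and 30.6 and 32.4 on WT arrays, with Cd3g and Ncr1 at background everywhere. The 5 endothelial and stromal markers summed to 164 to 254 on KO arrays, 97.1 to 172 on HT arrays, and 91.4 and 110 on WT arrays, with 0 past the test, and their part in the IRG levels was not tested. The 6 measured hepatocyte markers summed to 49.1 to 69.9 on KO arrays, 614 to 1048 on HT arrays, and 192 and 611 on WT arrays. By limma 2 of them fell against HT, and 0 passed against WT. The 6 erythroid markers summed to 320 to 1661 on KO arrays, 370.5 to 2577 on HT arrays, and 661 and 754 on WT arrays. The 4 megakaryocyte markers summed to 4162 to 5662 on KO arrays, 4462 to 5070 on HT arrays, and 4489 and 4673 on WT arrays.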

How the data were processed

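The authors summarised the arrays with RMA, per the submitters' processing notes, and deposited linear intensity values per probe set; the version and settings were not stated. RNA was labelled with a Nugen kit, per the labels' protocols. Log2 was taken here without further normalization, and 64 control probe sets of 45101 were left out. By the platform annotation 34945 tested probe sets name 1 gene, 932 name more than 1 and 9160 are unnamed. A gene is its brightest probe set, and 0 per-sample columns were unused.

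A 3-group model (limma 3.58.1, R 4.3.3, 5 residual degrees of freedom) gave the pairwise differences, and a 2-group model (6 degrees) gave KO against HT and WT joined. Tests were two-sided, with Benjamini-Hochberg adjustment over 45037 probe sets and a threshold of 0.05. The model was run on simulated data with normal noise of the HT spread in every group and no background floor. In the arrays themselves spreads were unequal, as for Irgm1 with an SD of 1.99 in KO and 0.12 in HT. The simulation therefore does not check calls under unequal spread or at background. Each array is 1 mouse, so p-values reflect the spread between mice, and so few arrays limit precision. "At least" folds divide the KO mean by the mean background of the other group's arrays, with means taken on the log2 scale. They are given only where every array of that other group was at or below its background.

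Every member probe set was reported, with up to 4 genes per list by largest difference from WT, the 6 most alike genes, and neighbours past the threshold. Ifng, Ifnb1, Mki67 and Top2a were named after their values were seen. Members and lists were chosen with earlier results of these data known. Alternatives are in the closing section.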

Additional observations from a re-analysis of the deposited data

How the results depend on the processing

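Groups of 2 or 3 arrays and readings near background limit these results. No paired analysis was possible because the labels give no replicate numbers shared between groups. For KO against WT the count of called IRG probe sets was 3 with a pseudocount of 32 (Igtp and the dimmer Iigp1 probe set lost their calls) and 0 with the arrays of the 2 groups only, where the count of IRG genes was 0 too and 4 of all 45037 probe sets (0.00888%) passed. The log2 differences of that fit were those reported. Against WT the other IRG counts held within 1.5-fold under quantile normalization, a filter for probe sets above background on 2 arrays, array weights, a sex covariate, eBayes with trend and, for genes, the mean of all probe sets. Against HT and against both joined they held under these, the pseudocount and, for HT, the arrays of the 2 groups only. Leaving out each array gave 5 called IRG probe sets against WT and HT and 5 to 6 against both joined. With the pseudocount the differences of the 5 called probe sets were 2.42 to 4.32 against WT and 2.44 to 4.35 against HT. The GBP count was less stable. Against WT it was 0 with the pseudocount, array weights, the 2 groups only, the sex covariate and the trend, and 0 to 2 without single arrays. Against HT it was 0 with the pseudocount and the sex covariate, 2 with the filter, array weights, the trend and the mean of probe sets, and 0 to 3 without single arrays. Against both joined it was 1 with the pseudocount and 1 to 4 without single arrays. In HT against WT, leaving out single arrays turned the sign of differences that were not called. They ran from -0.19 to 0.46 for Irgm1, -0.75 to 0.44 for Irgm2, -0.14 to 0.11 for Igtp and -0.37 to 0.057 for Tgtp1. The cause was not tested.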
